A study of Mus musculus with 48 samples.

Results

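*Hbb-bs*, *Hbb-bt*, *Hba-a1*, *Hba-a2* and *Alas2* are the 4 adult hemoglobin chain genes of the mouse and the gene of the heme-making enzyme of red cells. These 5 genes were chosen by name, with earlier results of these data known, out of 46983 genes counted per library. All 5 were among the 19970 genes tested. Hemoglobin carries oxygen as a tetramer of alpha and beta chains, each holding a heme, and red blood cells make it during their maturation in the bone marrow and spleen. Young red cells in the circulation (reticulocytes) still hold globin and *Alas2* messenger RNA, so that blood in a tissue sample brings these transcripts with it. Neurons and glia make other globins (neuroglobin, cytoglobin) and use the housekeeping enzyme *Alas1* for the first step of heme synthesis.

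Bulk RNA from the cortex of 3-month-old male mice of the strain C57Black/6 was measured in 48 libraries of 11 groups. The intact control had 4 libraries. Permanent middle cerebral artery occlusion (MCAO), in which the artery was coagulated and cut through a hole drilled in the skull, had 5 libraries at 3 h, 12 h, day 3 and day 7 and 4 libraries on day 1 (24 h). Sham mice, with 4 libraries at each of these 5 times, had the same surgery without the coagulation. No group carried a transgene or allele that the labels name, and the tissue of an MCAO library held both affected and unaffected cortex. The methods describe a transcardial rinse with cold buffer for brain dissection in general, without naming these libraries, and the blood left in each sample was not measured. Replicates carried letters with no statement of how they were handled, so that p-values measure the spread between these samples only.

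Reads counted on genes numbered 1522668 to 2826735 per library, and 24.0 to 37.3% of the alignments tallied per library were not unique. The libraries carried neuronal markers throughout (12 genes, 7987 to 16040 CPM summed per library). CPM are the usual read rates, counts divided by the gene counts of the library after TMM scaling. The control library A stood apart from the others by its choroid plexus transcripts, with 490.4 CPM of *Ttr* against at most 48.5 CPM in any MCAO library and 4.20 CPM in any sham library.

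The beta chain genes lie on the minus strand of chromosome 7 and the alpha chain genes on the plus strand of chromosome 11, as neighbours of the same family. In the Gencode vM21 annotation of GRCm38, *Hbb-bs* (ENSMUSG00000052305) spans positions 103826534 to 103828096 and *Hbb-bt* (ENSMUSG00000073940) spans 103812524 to 103813996. *Hba-a1* (ENSMUSG00000069919) spans 32283511 to 32284465 and *Hba-a2* (ENSMUSG00000069917) spans 32296489 to 32297298. *Alas2* (ENSMUSG00000025270) lies on the plus strand of the X chromosome from 150547375 to 150570638. The first annotated transcript of each globin gene has 3 exons, and that of *Alas2* has 11.

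The promoters of the 5 genes are shown as a description, and their part in the levels was not tested. RefSeq (GRCm38.p6) gave the 250 bases before its start site for 5 of 5 genes. The Gencode starts lie upstream of the RefSeq starts in all 5, so that each window reaches into the Gencode gene span, least in *Hba-a2*, and all distances given hold for the RefSeq starts only. Capitals mark matches to TATAA (the TATA box core), CCAAT (the CCAAT box), CACCC (a site type of Krüppel-like factors) and GATAA (a site type of GATA factors), searched on both strands. Matches may overlap, as a TATAA on either strand does in *Alas2*. The sequences run 5′ to 3′ on the strand of the gene.
Hbb-bs: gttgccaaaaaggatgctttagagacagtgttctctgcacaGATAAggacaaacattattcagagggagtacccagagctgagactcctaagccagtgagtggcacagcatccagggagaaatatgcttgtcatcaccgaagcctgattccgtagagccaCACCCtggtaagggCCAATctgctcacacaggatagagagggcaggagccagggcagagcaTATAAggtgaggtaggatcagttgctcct
Hbb-bt: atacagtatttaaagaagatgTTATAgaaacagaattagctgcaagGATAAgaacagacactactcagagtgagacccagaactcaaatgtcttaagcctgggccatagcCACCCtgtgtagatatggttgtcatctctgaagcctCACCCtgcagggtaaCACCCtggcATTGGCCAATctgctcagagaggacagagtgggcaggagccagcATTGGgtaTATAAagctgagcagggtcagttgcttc
Hba-a2: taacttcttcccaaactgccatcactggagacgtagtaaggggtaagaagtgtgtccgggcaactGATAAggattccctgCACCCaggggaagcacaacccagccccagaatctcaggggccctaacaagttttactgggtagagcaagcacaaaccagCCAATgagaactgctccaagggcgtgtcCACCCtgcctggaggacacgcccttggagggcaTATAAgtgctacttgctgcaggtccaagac
Alas2: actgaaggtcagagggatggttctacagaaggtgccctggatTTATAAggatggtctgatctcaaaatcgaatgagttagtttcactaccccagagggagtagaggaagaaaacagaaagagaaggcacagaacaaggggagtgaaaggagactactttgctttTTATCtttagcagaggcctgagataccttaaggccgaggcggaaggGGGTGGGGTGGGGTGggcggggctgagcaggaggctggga
They lie at chr7:103827929-103828178 (*Hbb-bs*), chr7:103813924-103814173 (*Hbb-bt*), chr11:32296242-32296491 (*Hba-a2*) and chrX:150547167-150547416 (*Alas2*). The window of *Hba-a1* is not printed because 247 of the 247 bases aligned with *Hba-a2* were identical, with the start sites set slightly apart. Between *Hbb-bs* and *Hbb-bt* 175 of 244 aligned bases were identical (71.7%).

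All 4 globin windows held each of the 4 motifs, as did 0.968% of the 32851 RefSeq promoter windows of the same length. In both beta genes the matches lay at nearly the same places, TATAA beginning 29 bases before the start in *Hbb-bs* and 28 in *Hbb-bt*, CCAAT at 76 and 75, and the nearest CACCC at 90 and 89. In *Hba-a2*, TATAA began 30 bases, CCAAT 91 bases and GATAA 185 bases before the start. *Alas2* had no CCAAT, its TATAA match lay 207 bases upstream, and its 3 CACCC matches, read on the other strand, lay within 40 bases of the start. Singly the motifs are common, with TATAA in 22.8%, CCAAT in 33.9%, CACCC in 52.0% and GATAA in 22.6% of the windows. The matches are letters only, and binding of a factor was not measured.

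The copies share much of their transcripts. Those of *Hba-a1* and *Hba-a2* were identical at 537 of 538 aligned bases, and the single difference lay 123 bases from the 3′ end of *Hba-a1* and 139 bases from that of *Hba-a2*, which runs 16 bases further. Of the 216 stretches of 85 bases (the read length) within the last 300 bases of the transcript, 131 of those of *Hba-a1* also stood in *Hba-a2*, and 115 of those of *Hba-a2* in *Hba-a1*. For *Hbb-bs* and *Hbb-bt*, with 580 of 626 aligned bases identical, 57 and 56 of the 216 stretches were shared. *Alas2* shared none with the globins. A read from a shared stretch is not unique and was not counted, so that all 4 globins are undercounted and the split of reads between copies is uncertain.

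*Hbb-bs* gave the most reads of the 5 genes, 11199 over the 48 libraries, followed by *Hba-a1* with 6154, *Hba-a2* with 2758, *Hbb-bt* with 2072 and *Alas2* with 93. The libraries were primed at the poly(A) end, so that reads do not grow with transcript length, but the reads lost between copies still bar a ranking of the genes as transcripts. Together the 4 globins took 0.00357 to 0.148% of the gene counts in the MCAO libraries (median 0.0284%), against 0.000916 to 0.0148% in the sham libraries and 0.00378 to 0.0117% in the control.

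**Figure D1:**
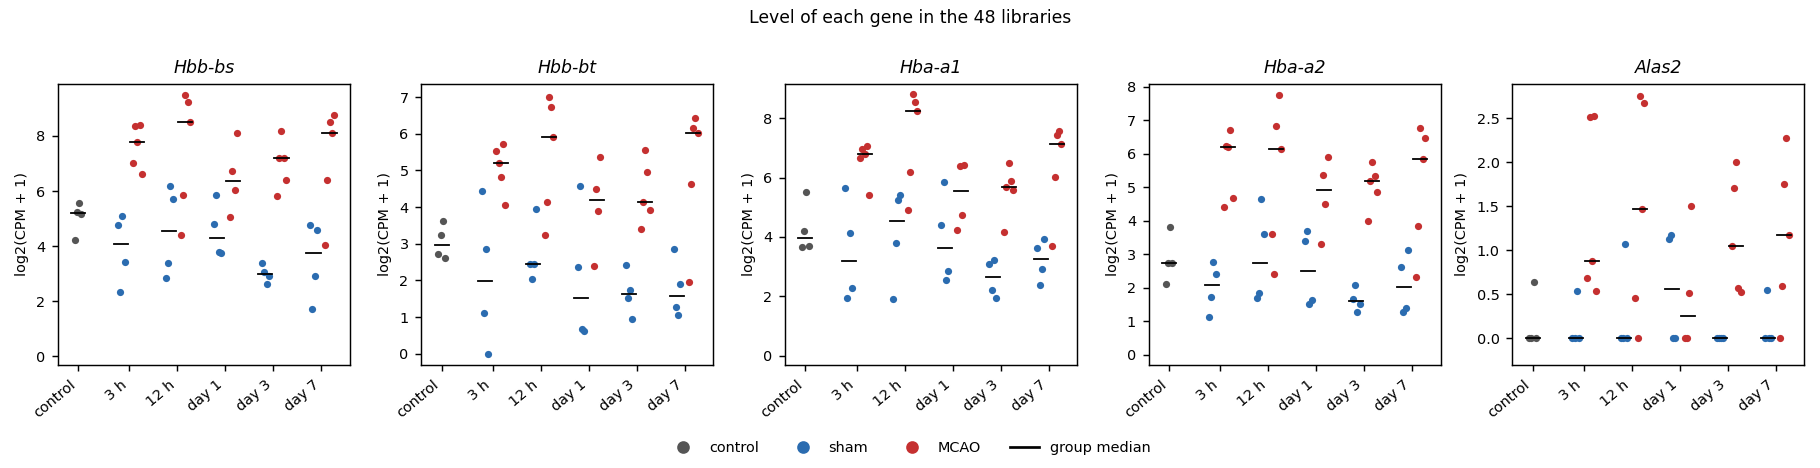
Level of each gene in the 48 libraries, as log2(CPM + 1), against the group (control, then sham and MCAO at each time). Each point is a library and each black line a group median. The MCAO medians of the 4 globins lie above the sham medians at each time. Single MCAO libraries lie among the shams at 12 h, on day 1 and on day 7, and at 3 h for *Hbb-bt* and *Hba-a1*. Most sham libraries hold no read of *Alas2*.

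*Hbb-bs*, the adult beta chain gene with more counted reads, was at 17.9, 37.1, 46.8 and 34.7 CPM in control libraries A to D. In the shams it was at 26.1, 4.03, 33.2 and 9.81 CPM at 3 h, at 6.14, 9.38, 71.7 and 51.0 CPM at 12 h and at 27.2, 57.5, 12.8 and 12.6 CPM on day 1. On day 3 the shams held 9.43, 7.38, 5.14 and 6.56 CPM, and on day 7 they held 26.3, 2.33, 6.54 and 22.8 CPM. The shams thus spread widely, with the exception of day 3, where all 4 lay below every control library.

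After MCAO *Hbb-bs* was at 130.2, 325.8, 219.4, 333.0 and 97.5 CPM at 3 h (libraries A to E) and at 20.4, 56.8, 723.5, 605.3 and 364.5 CPM at 12 h. It was at 32.3, 104.7, 64.4 and 271.5 CPM on day 1 and at 55.0, 146.4, 287.1, 146.0 and 84.2 CPM on day 3. On day 7 it was at 15.6, 84.0, 364.6, 275.9 and 433.3 CPM. At 3 h and on day 3 every MCAO library lay above every sham library of the same time. At 12 h library A, and also library B against sham C, fell into the sham range, and on day 7 library A did, 27.8-fold below the highest library of its group. The highest library exceeded the lowest 35.5-fold at 12 h, but only 3.42-fold at 3 h.

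In order of the group means *Hbb-bs* was highest at 12 h after MCAO (354.1 ± 316.0 CPM), followed by MCAO on day 7 (234.7 ± 179.4), at 3 h (221.2 ± 108.4), on day 3 (143.7 ± 89.4) and on day 1 (118.2 ± 106.4, SD, n = 4, and n = 5 for the other MCAO groups). The shams at 12 h (34.6 ± 32.1 CPM) and the control (34.1 ± 12.0) came next, and the shams of day 1 (27.5 ± 21.1), 3 h (18.3 ± 13.6), day 7 (14.5 ± 11.8) and day 3 (7.13 ± 1.79) followed (SD, n = 4 each). Each of these means differed from its neighbour in the order by less than the larger SD of the pair. The other 3 globins, too, had the means of the 5 MCAO groups above those of all sham groups and the control, while for *Alas2* the mean of the shams of day 1 (0.612 CPM) lay above that of MCAO on day 1 (0.565 CPM). The shams of day 3 were lowest for each of the 5 genes.

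The 5 genes were first compared over all times, as the mean of the 5 MCAO groups against the mean of the 5 sham groups. All 5 were higher after MCAO, in a comparison in which 4.51% of all genes tested were called higher. A gene was called at an adjusted p under 0.01 (edgeR, quasi-likelihood, adjusted over all genes after Benjamini and Hochberg) with an absolute log2 fold change over 0.58. The log2 fold change was 3.46 for *Hbb-bs* (standard error 0.37, adjusted p = 1.16e-09 from edgeR), 2.85 for *Hbb-bt* (0.37, adjusted p = 1.09e-07), 2.76 for *Hba-a1* (0.34, adjusted p = 2.57e-08) and 3.41 for *Hba-a2* (0.38, adjusted p = 3.15e-09). *Alas2* was called as well (adjusted p = 6.10e-04 from edgeR), on the few reads given further on. The median log2 fold change of the 5 genes was 2.85, that of all genes tested 0.03. In bulk tissue, more cells of a type and more RNA per cell cannot be told apart. With any library left out 4 or 5 of the 5 genes were called, and the same held for each of the other fits tried.

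**Figure D2:**
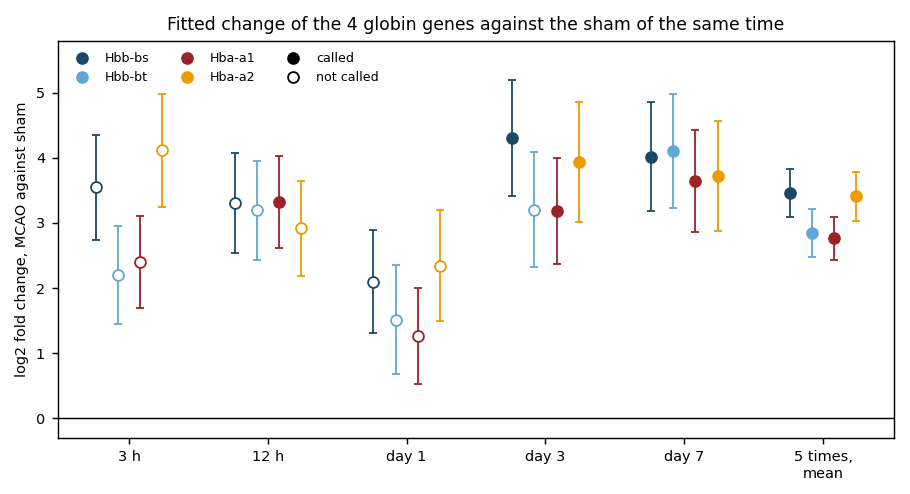
Log2 fold change of the 4 globin genes in MCAO against the sham of the same time, and over the mean of the 5 times (vertical axis). Points are the values fitted by edgeR, bars are standard errors, and filled points were called. All points lie above 0, with the lowest on day 1 (1.26 for *Hba-a1*) and the highest on day 3 (4.30 for *Hbb-bs*).

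At single times the difference to the sham was above 0 for each globin, but calls depended on the time. At 3 h 0 of the 5 genes were called by edgeR, where 0.0901% of all genes were called higher. All 5 had an unadjusted p under 0.05 in edgeR, as had 1688 of the 19970 genes tested. The log2 fold change was 4.11 for *Hba-a2* (standard error 0.86, adjusted p = 0.0122 from edgeR) and 3.55 for *Hbb-bs* (0.81, adjusted p = 0.0267), 2.40 for *Hba-a1* and 2.20 for *Hbb-bt*. *Hbb-bs*, *Hba-a2* and *Alas2* had every MCAO library above every sham library, as had 2.26% of all genes. For *Alas2* this is no separation, since MCAO A and E and sham C had 1 read each and differed only by library size. DESeq2 called 2 of the 5 genes, and so did edgeR with only the sham and MCAO libraries of 3 h in the fit. Leaving out single libraries of other times also gave 1 call (12 h MCAO B or D, 12 h sham A or C, day 3 MCAO A, day 7 MCAO A or C) or 2 calls (12 h MCAO A). Of all genes 15 to 35 were called in these fits and 22 in the main fit.

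At 12 h *Hba-a1* was called (1 of 5 genes, where 0.346% of all genes were called higher). It was at 29.3, 71.8, 447.0, 375.9 and 300.1 CPM after MCAO and at 2.79, 13.0, 36.6 and 42.1 CPM in the shams, which gave 3.32 on the log2 scale (standard error 0.71) at an adjusted p of 0.00782 in edgeR. The lowest MCAO library lay between the sham libraries, so that the groups overlapped, as they did for the other 4 genes (2.03% of all genes had every MCAO library above every sham). *Hbb-bs* (3.30), *Hbb-bt* (3.20) and *Hba-a2* (2.92) differed about as much, with adjusted p of 0.0160, 0.0194 and 0.0288 from edgeR. The call changed with single libraries left out. It was lost without MCAO C, D or E (0 of 5 genes each), where 42, 102 and 32 of all genes were called, against 82 in the main fit. Without sham A, B, C or D of 12 h it was lost as well (0 of 5 genes each), with 37, 34, 21 and 32 of all genes called. In turn 4 of the 5 genes were called without MCAO A, 3 without MCAO B and 2 without MCAO A of day 7. Of all genes 86, 78 and 72 were called in these fits. The call was also lost with scaling to the spike-ins, with the deposited log2-scale matrix and with only the groups of 12 h in the fit.

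On day 1 0 of 5 genes were called by edgeR and 0 by DESeq2, where 0.0801% of all genes were called higher. An unadjusted p under 0.05 in edgeR was found for 2 of the 5 genes and for 1757 of the 19970 genes tested. No gene of the 5 had all MCAO libraries above all shams (3.76% of all genes). The log2 fold changes of the globins were the lowest of the 5 times, 2.35 for *Hba-a2*, 2.099 for *Hbb-bs*, 1.52 for *Hbb-bt* and 1.26 for *Hba-a1*, with standard errors of 0.74 to 0.85 and adjusted p of 0.321 to 0.635 from edgeR. Sham library B of that day held 22.8 CPM of *Hbb-bt*, more than 3 of the 4 MCAO libraries (4.25, 21.5, 13.98 and 40.4 CPM).

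On day 3 *Hbb-bs*, *Hba-a1* and *Hba-a2* were called (3 of 5 genes, where 3.76% of all genes were called higher). *Hba-a1* was at 17.1, 50.6, 88.9, 57.6 and 46.7 CPM after MCAO and at 7.61, 3.69, 8.41 and 2.81 CPM in the shams. *Hba-a2* was at 14.9, 35.2, 53.4, 39.1 and 27.8 CPM after MCAO and at 2.18, 3.23, 1.40 and 1.87 CPM in the shams. All 5 MCAO libraries lay above all 4 shams for each of the 5 genes, which held for 4.33% of all genes. For *Alas2* this rests on 1 read each in MCAO D and E, against 0 reads in the shams.

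The log2 fold change on day 3 was 4.30 for *Hbb-bs* (standard error 0.89, adjusted p = 7.75e-04 from edgeR), 3.18 for *Hba-a1* (0.82, adjusted p = 0.00814) and 3.93 for *Hba-a2* (0.92, adjusted p = 0.00318). *Hbb-bt* was at 9.61 to 45.9 CPM after MCAO and at 0.937 to 4.35 CPM in the shams, with a log2 fold change of 3.20 and an adjusted p of 0.0147 from edgeR. Without MCAO library C 1 of the 5 genes was called, and 441 of all genes, against 802 in the main fit. Without any one of the 4 shams 1 of the 5 genes was called, and 495 to 526 of all genes. In the deposited log2-scale matrix 1 of the 5 genes was called.

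On day 7 all 4 globins were called, where 2.07% of all genes were called higher. *Hbb-bt* was at 2.88, 23.9, 70.2, 85.4 and 63.9 CPM after MCAO and at 6.29, 1.40, 1.09 and 2.74 CPM in the shams. *Hba-a1* was at 12.1, 63.6, 171.3, 187.6 and 137.8 CPM after MCAO and at 11.4, 4.20, 6.54 and 14.1 CPM in the shams. *Hba-a2* was at 4.04, 13.2, 108.9, 56.6 and 88.3 CPM after MCAO and at 5.15, 1.40, 1.64 and 7.75 CPM in the shams. In each of these genes 4 MCAO libraries lay above all shams and library A lay among them, so that 0 of 5 genes had groups without overlap (5.38% of all genes).

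The log2 fold change on day 7 was 4.11 for *Hbb-bt* (standard error 0.88, adjusted p = 0.00183 from edgeR), 4.02 for *Hbb-bs* (0.84, adjusted p = 0.00141), 3.72 for *Hba-a2* (0.85, adjusted p = 0.00330) and 3.65 for *Hba-a1* (0.79, adjusted p = 0.00191). Without sham library B of that day 0 of the 5 genes were called, and 422 of all genes, against 698 in the main fit. In the other fits tried 4 or 3 of the 5 genes were called. *Hbb-bt* was called on day 7 and not on day 3, and the difference between the times is tested next.

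In the test of whether the effect of MCAO over sham differed between the 5 times, 0 of the 5 genes were called by edgeR, 0 at an unadjusted p under 0.05 and 0 by DESeq2 (adjusted p of 0.413 to 0.767), where 0.491% of all genes were called. The summed level of the 4 globins was 416.7 ± 182.5 CPM at 3 h, 745.1 ± 625.9 at 12 h, 223.5 ± 173.3 on day 1, 253.2 ± 142.1 on day 3 and 452.6 ± 320.9 on day 7 after MCAO (SD, n = 4 on day 1 and 5 otherwise). In the shams it was 46.9 ± 40.5, 74.9 ± 61.9, 63.0 ± 60.5, 17.3 ± 4.72 and 30.4 ± 20.8 CPM at the same times (SD, n = 4 each).

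The shams were compared with the intact control to ask what the surgery alone changed. At none of the 5 times was any of the 5 genes called by edgeR or by DESeq2, where 0 to 0.0351% of all genes were called (0.0351% at 12 h, 0.01% on day 1 and 0% at 3 h, on day 3 and on day 7). On day 3 2 of the 5 genes had an unadjusted p under 0.05 in edgeR, as had 731 of the 19970 genes tested. The log2 fold changes were -2.23 for *Hbb-bs* and -1.91 for *Hba-a1*, and at the other times 0 of the 5 genes had such a p. Only with no groups but these in the fit was 1 gene called on day 3. Over the mean of the 5 sham groups 0 of 5 genes were called by edgeR (0 at an unadjusted p under 0.05, 0 by DESeq2), where 0.02% of all genes were called, and the fold changes of the globins ran from -0.92 (*Hbb-bs*) to -0.59 (*Hba-a2*). In the test of a difference among the 5 sham times 0 of 5 genes were called by edgeR (adjusted p of 0.715 to 0.837, 0 at an unadjusted p under 0.05 and 0 by DESeq2), where 0.0851% of all genes were called.

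Against the same 4 control libraries, which each of these comparisons shares, 3 of the 5 genes were called at 12 h after MCAO (0.386% of all genes called higher) and 0 at the other times by edgeR. At 12 h the log2 fold change was 3.55 for *Hba-a2* (standard error 0.80, adjusted p = 0.00731 from edgeR), 3.50 for *Hba-a1* (0.73, adjusted p = 0.00368) and 3.37 for *Hbb-bs* (0.78, adjusted p = 0.00951). Without control A, B or D, or without MCAO C, 0 of the 5 genes were called at 12 h, and 72 to 116 of all genes. Without control C, or without MCAO D or E, 1 of the 5 genes was called, and 88 to 152 of all genes. The main fit called 170 of all genes. With only the groups compared in the fit the count was 4 at 3 h and 0 at 12 h. On day 7, 2 genes were called without MCAO A, where 312 of all genes were called, against 300 in the main fit. The fold changes of the globins ran from 2.19 to 3.10 at 3 h and from 1.27 to 2.20 on day 1. They ran from 1.27 to 2.30 on day 3 and from 2.41 to 2.95 on day 7. Of all genes 0.115%, 0.12%, 2.81% and 1.09% were called higher at these times. An unadjusted p under 0.05 in edgeR was found for 5, 2, 4 and 5 of the 5 genes. It was found for 1825, 2191, 3945 and 2981 of the 19970 genes tested. DESeq2 called 1 gene on day 7 and 0 at 3 h, on day 1 and on day 3. At 3 h *Hbb-bs*, *Hbb-bt* and *Hba-a2* had all MCAO libraries above all control libraries (2.76% of all genes), and on day 3 *Hbb-bs* and *Hba-a2* had (4.16%).

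*Alas2*, which makes the first intermediate of heme in developing red cells, was read only 93 times in all. After MCAO it had 1, 10, 2, 11 and 1 reads at 3 h, 1, 0, 11, 3 and 9 at 12 h, 0, 0, 1 and 3 on day 1, 2, 5, 6, 1 and 1 on day 3 and 0, 1, 4, 8 and 2 on day 7. The shams had 0, 0, 1 and 0 reads at 3 h, 0, 0, 3 and 0 at 12 h, 2, 2, 0 and 0 on day 1, 0 in all 4 libraries on day 3 and 0, 1, 0 and 0 on day 7. The control had 0, 0, 1 and 0. It was thus read in 20 of 24 MCAO libraries, in 5 of 20 sham libraries and in 1 of 4 control libraries.

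Over all times the 83 MCAO reads and 9 sham reads of *Alas2* gave a ratio of 7.81 after division by the gene counts (95% exact interval 3.92 to 17.7). The ratio was 19.5 at 3 h (25 against 1 read, 3.19 to 801.0), 7.15 at 12 h (24 against 3 reads, 2.17 to 37.1), 0.803 on day 1 (4 against 4 reads, 0.150 to 4.31) and 13.1 on day 7 (15 against 1 read, 2.02 to 551.9). On day 3 the 15 reads after MCAO, set against a floor of 3 counts over the 4 sham libraries, gave a ratio of 4.42. This value leaves out the counting error of the 15 reads, so that it is no lower limit and cannot be set beside the intervals. The intervals cover counting error only, the floor covers that of the sham reads only, and neither covers the spread between mice. *Alas2* was called at none of the single times by edgeR or DESeq2, with adjusted p from 0.0442 on day 3 to 0.995 on day 1 from edgeR. With filterByExpr it was left out of the test, and in the deposited log2-scale matrix the log2 fold change of Alas2, all MCAO against all sham, was 0.44, under the threshold (adjusted p = 0.000696 from limma).

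The share of each copy was compared between libraries as a description, since shared reads are lost. *Hbb-bt* took 15.1% of the beta chain reads over all MCAO libraries (95% Wilson interval 14.5 to 15.8, 11873 reads) and 20.1% over all shams (17.8 to 22.5). Single libraries ran from 9.92 to 29.5% after MCAO (median 14.9%) and from 0 to 44.1% in the shams (median 19.7%), so that the groups overlapped. *Hba-a2* took 31.8% of the alpha chain reads after MCAO (30.8 to 32.9, libraries from 5.73 to 46.7%) and 24.9% in the shams (22.2 to 27.9, libraries from 2.34 to 53.3%). The alpha chains together took 39.7% of the globin reads after MCAO (39.0 to 40.4, libraries from 29.9 to 58.3%), 45.1% in the shams (43.0 to 47.3, libraries from 32.1 to 60.0%) and 40.6% in the control (36.3 to 44.9). The intervals cover counting error only.

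**Figure D3:**
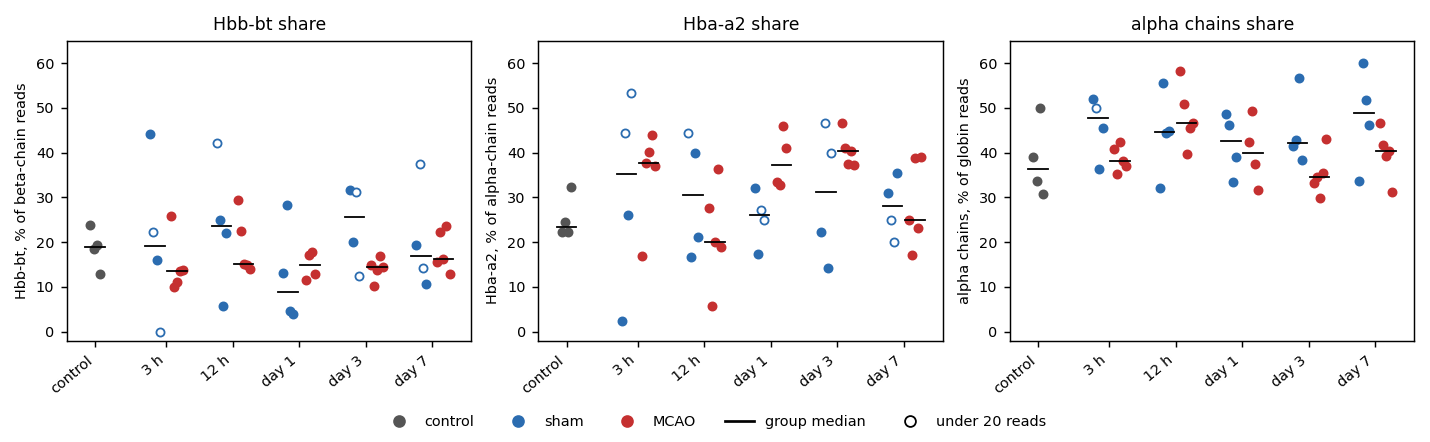
Share of *Hbb-bt* in the beta chain reads, of *Hba-a2* in the alpha chain reads and of alpha chains in all globin reads (percent, vertical axes) in each library, by group. Open points rest on fewer than 20 reads, and black lines are group medians. On day 3 after MCAO the *Hba-a2* share stays between 37.3 and 46.7%, while at 12 h it runs from 5.73 to 36.4%.

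The split between the alpha copies varied widely between some libraries. At 12 h after MCAO library B had 148 reads of *Hba-a1* and 9 of *Hba-a2*, where library D had 639 and 366. Sham library A of 3 h had 125 reads of *Hba-a1* and 3 of *Hba-a2*, against 37 and 13 in sham library C. In the MCAO groups of day 1 and day 3 the *Hba-a2* share lay between 32.7 and 46.7% in all 9 libraries.

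Within groups, the 5 genes varied together from library to library. After the group means were subtracted from log2(CPM + 1), Pearson's r over the 48 libraries was 0.90 between *Hbb-bt* and *Hba-a1* (Spearman's rho = 0.89), 0.90 between *Hbb-bs* and *Hba-a1* (rho = 0.90), 0.89 between *Hbb-bs* and *Hba-a2* (rho = 0.91) and 0.83 between *Hbb-bs* and *Hbb-bt* (rho = 0.85). For these 4 pairs the two-sided permutation p of r and of rho was 1e-05, the smallest that 100000 resamples within groups can give (adjusted over the 10 pairs 2.5e-05 for r and 1.67e-05 for rho). The 2 alpha copies were less alike (r = 0.76, rho = 0.80), and so were *Hbb-bt* and *Hba-a2* (r = 0.68, rho = 0.72, adjusted permutation p of at most 5e-05 in each of these pairs). *Alas2* gave r of 0.59 to 0.72 and rho of 0.59 to 0.73 with the 4 globins (permutation test, adjusted p of at most 0.00029). Without the 2 libraries farthest from the median of the first gene of a pair, r over the 10 pairs was 0.53 to 0.88.

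**Figure D4:**
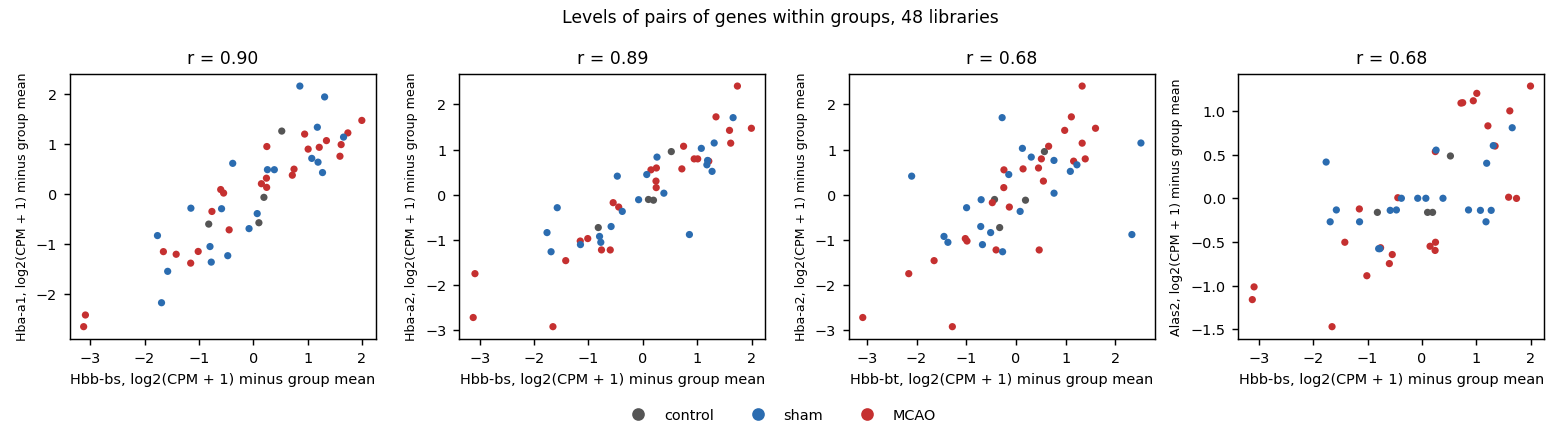
Levels of 4 pairs of genes in the 48 libraries, as log2(CPM + 1) minus the mean of the library's group on both axes. Each point is a library and r is Pearson's. The points of *Hbb-bs* with *Hba-a1* (0.90) and *Hba-a2* (0.89) lie closest to a line, those of *Hbb-bt* with *Hba-a2* (0.68) and *Hbb-bs* with *Alas2* (0.68) less so.

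The relation held among the 24 MCAO libraries alone (r of 0.71 to 0.96 over the 10 pairs). Among the 24 control and sham libraries the 10 pairs gave r of 0.37 to 0.83, and 4 pairs no longer passed an adjusted permutation p of 0.05. These were *Hbb-bt* with *Hba-a2* (r = 0.37, adjusted permutation p = 0.153) and *Alas2* with *Hbb-bs* (0.43), *Hbb-bt* (0.39) and *Hba-a1* (0.51). The libraries of a pair share their depth, and r between the members and the gene counts per library was -0.10 within groups, with -0.01 for the percentage of alignments that were not unique.

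Other genes of hemoglobin and of red cells were mostly near 0 or not called. The embryonic and minor chains (7 genes) had few reads, with 9 reads of *Hbb-y*, 15 of *Hbq1a* and 1 of *Hbq1b* in all libraries together and 0 of the other 4. Of 25 listed genes of red cells and their precursors, 24 were found in the count table. *Rhag*, *Trim58*, *Gata1* and *Gfi1b* had 0 reads in all 48 libraries, and the membrane protein *Slc4a1* (band 3) had 9 reads in all. The erythroid transcription factor *Klf1* had 17. The genes of this list with many reads, such as *Sptb* (9456 reads), *Tfrc* (6302), *Slc25a37* (4681) and *Bpgm* (4429), are used by other cells as well. Of its 12 genes tested 0 rose in any of the 5 comparisons of MCAO with sham, and 1 fell, *Slc25a37*, which carries iron into mitochondria, on day 7 (log2 fold change -0.89, adjusted p = 0.00465 from edgeR). Over all times 0 of 12 were called by edgeR (2 at an unadjusted p under 0.05, and 1 by DESeq2), with a median log2 fold change of -0.01.

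The other genes of heme synthesis were not called. The 8 genes of this list, *Alas1*, *Alad* and *Fech* among them, were all tested, and 0 of the 8 were called by edgeR in any comparison of MCAO with sham, with at most 1 of 8 at an unadjusted p under 0.05 at a single time and 1 called by DESeq2 on day 7. Over all times the median log2 fold change was 0.06, and their summed level was 155.3 to 229.3 CPM in MCAO libraries and 138.5 to 231.0 CPM in shams. The globins of brain and muscle, *Ngb*, *Cygb* and *Mb*, had 0 of 3 genes called in any of these comparisons by edgeR or DESeq2 (0 at an unadjusted p under 0.05), with a median of -0.28 over all times.

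Genes that take up hemoglobin and break down heme included some that rose. *Hmox1*, the inducible heme oxygenase, was at 24.9 ± 30.5 CPM after MCAO (SD, n = 24) and at 1.44 ± 1.06 CPM in the shams (SD, n = 20), and it rose at 12 h (log2 fold change 5.04, adjusted p = 0.00277 from edgeR), on day 3 (4.76, adjusted p = 8.60e-05) and over all times (3.72, adjusted p = 6.26e-09). *Hp* (haptoglobin, which binds free hemoglobin) had 69 reads after MCAO and 0 in sham and control libraries, and was called over all times (adjusted p = 0.00185 from edgeR). *Blvrb* rose on day 3 (1.14, adjusted p = 0.00320) and *Lrp1*, a receptor of hemopexin-bound heme, on day 7 (0.69, adjusted p = 0.00467). Of the 8 genes of this list 2 were called higher and 0 lower over all times by edgeR, and 1 was called by DESeq2, with a median log2 fold change of 0.48.

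Markers of cells that could come with blood or vessels were summed beside the members. The 10 neutrophil markers together were at 10.1 to 1738 CPM in MCAO libraries (median 35.7), at 1.83 to 11.7 CPM in shams and at 6.70 to 18.5 CPM in the control. Over all times 6 of the 10 were called higher, among them *S100a9* (log2 fold change 4.77, adjusted p = 2.97e-06 from edgeR), *S100a8* (4.55, adjusted p = 3.83e-07) and *Retnlg* (129 reads after MCAO and 1 in the shams). Among the 10 platelet markers 7 were tested and 2 called higher, *Ppbp* (47 reads after MCAO and 0 in the shams) and *Pf4* (2.38, adjusted p = 3.46e-07), which other myeloid cells make too, with sums of 31.2 to 155.6 CPM after MCAO and 24.0 to 53.0 CPM in the shams.

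The 12 endothelium markers summed to 290.2 to 887.1 CPM after MCAO and 290.9 to 455.2 CPM in shams, with *Cdh5* (0.93) and *Pecam1* (0.84) called higher and *Slco1a4* (-0.65) lower over all times. On day 3 3 endothelium markers were called higher, *Pecam1* (2.02), *Cdh5* (1.99) and *Esam* (1.28), where DESeq2 called 7 of the 12, and the sum reached 887.1 CPM in MCAO library C. Among 10 lymphocyte markers 4 were tested and *Trbc2* was called lower (-1.12), with sums of 11.6 to 80.0 CPM after MCAO and 10.5 to 107.3 CPM in shams. Of the 12 neuron markers 0 were called over all times by edgeR (5 at an unadjusted p under 0.05, 0 by DESeq2), while *Snap25* fell on day 3 (log2 fold change -0.67, adjusted p = 0.00431 from edgeR) and *Rbfox3* (-0.87) and *Nefm* (-0.97) fell on day 7. The 8 choroid plexus markers summed to 2.498 to 58.5 CPM after MCAO and 0.569 to 512.7 CPM in the control, with the highest value in control A. The part of these cells in the levels of the 5 genes was not tested.

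Within groups, the summed neutrophil markers gave r = 0.56 (rho = 0.58) with the mean level of the 5 genes over the 48 libraries, the endothelium markers 0.38 (0.42) and the heme and hemoglobin clearance genes 0.24 (0.20). The erythroid cell genes gave 0.11 (0.17), the platelet markers 0.14 (0.08), the neuron markers -0.17 (-0.08) and the choroid plexus markers -0.22 (-0.31). These are descriptions of libraries that share their handling and depth.

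**Figure D5:**
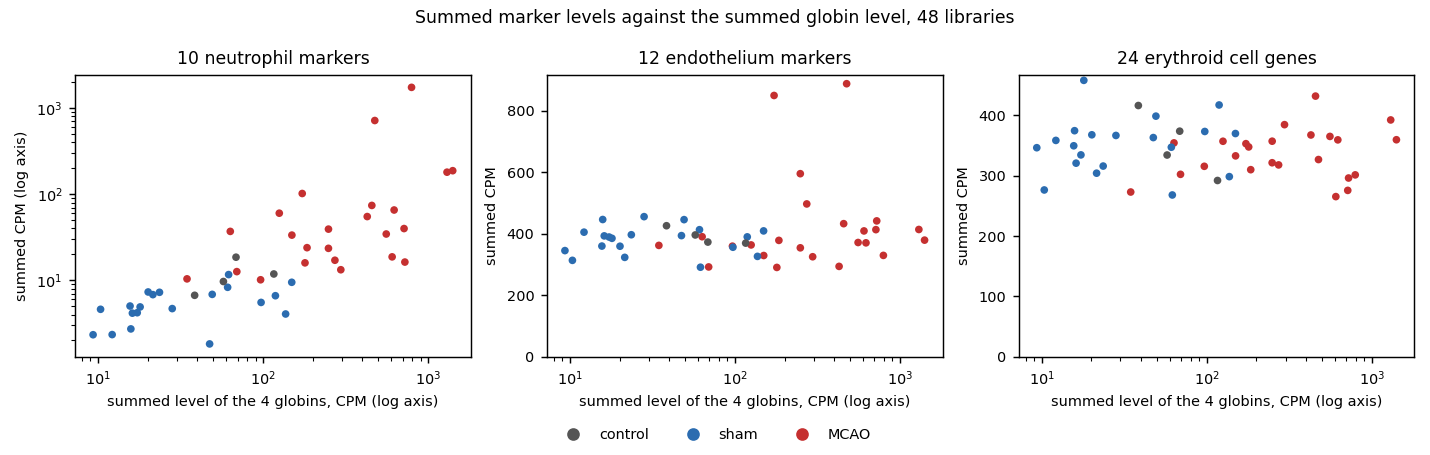
Summed level of 10 neutrophil markers (log axis), 12 endothelium markers and 24 erythroid cell genes against the summed level of the 4 globins (log axis, CPM), 1 point per library. The neutrophil sum reaches 1738 CPM in the 12 h MCAO library E, where the globins sum to 793.8 CPM, while the erythroid sum stays between 265.3 and 457.9 CPM in all 48 libraries.

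The 10 genes most like the members over the 48 libraries were found by Pearson's r between log2(CPM + 1) and the mean log2(CPM + 1) of the 5 genes, among 15343 other genes with a mean of at least 1 CPM. They were *Ccl4* (0.81), *Bcl3* (0.79), *Ccl9* (0.78), *S100a8* (0.77), *Icam1* (0.76), *Ccl3* (0.75), *Mcl1* (0.75), *Ccl2* (0.74), *Atf3* (0.74) and *Adamts1* (0.74). Chemokines (*Ccl2*, *Ccl3*, *Ccl4*, *Ccl9*) made up 4 of them. With the group means subtracted, which takes out the difference between MCAO and the other groups, r was 0.65 for *Bcl3*, 0.62 for *Ccl9*, 0.59 for *Icam1* and 0.57 for *S100a8*, and 4 of the 10 genes were again among the 10 most alike.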

How the data were processed

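Per the labels and the study's methods, 3′ end libraries with ERCC spike-ins were sequenced as single reads of 85 bases, trimmed, cleared of ribosomal reads, aligned with STAR 2.5.2b to GRCm38 and counted on Gencode vM8 genes with HTSeq. The authors deposited raw counts per library and a variance-stabilized matrix on a log2 scale made with DESeq2. Counts of 48 libraries were fitted in 1 model of 11 groups with edgeR 4.0.16 in R 4.3.3 (TMM scaling, quasi-likelihood test, genes with over 10 counts in all). A call needed an adjusted p (Benjamini-Hochberg) under 0.01 with a fold change beyond 0.58 on the log2 scale, up or down. The fit was tested on simulated data. Correlations used log2(CPM + 1) and 100000 permutations within groups. Alternatives were DESeq2 1.42.0, limma 3.58.1 on the deposited log2 matrix, other filters and scalings, a replicate block and leaving out each library. The members and lists were chosen with earlier results of these data known. Beside the 5 members, the rule for named genes took up to 4 called genes of each list and the 10 genes most like the members; genes of the erythroid and other hemoglobin lists that were not called, and *Ttr*, were named after their values were seen. No library pair held identical counts. Gene counts per library, 1522668 to 2826735, limit the precision for *Alas2* most. Some genes of the lists are not reported by name here.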

Additional observations from a re-analysis of the deposited data

Results flagged for a closer look

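Of 87 groups of 4 or 5 libraries examined, 9 held a library far from the others of its group, and chance alone gives about 1 in 20. That rate does not apply to the 4 groups of *Alas2* below, in which 1 library had reads and the others had none. Apart from these 4, the flagged groups were about as many as the rate gives. *Hbb-bt* was at 14.41 CPM in 12 h sham D (next highest 4.47) and at 22.75 CPM in day 1 sham B (next highest 4.15). *Hba-a1* was at 45.11 CPM in control C (next highest 17.4). *Alas2* was at 1.108 CPM in 12 h sham C, at 0.4481 CPM in 3 h sham C, at 0.4666 CPM in day 7 sham B and at 0.5639 CPM in control C, where the other libraries of each group had 0 reads. In 3 h MCAO A *Hbb-bt* took 25.77% of the beta chain reads (next highest 13.7%) and *Hba-a2* took 17.0% of the alpha chain reads (next lowest 37.0%).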

How the results depend on the processing

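Of the counts of the 5 genes called, 146 of the 165 values under other settings stayed within 1.5 times the main count. These include comparisons with 0 calls in the main fit, such as those of sham against control. The 19 values that moved follow, and most belong to MCAO against sham or control at single times. For MCAO against sham at 3 h (0 called) DESeq2 called 2, a fit of the compared groups alone 2, no filter on low counts 3 and the replicate block 1. At 12 h (1 called) DESeq2 called 2, no filter 4, and 0 were called with spike-in scaling, the deposited log2-scale matrix, only the groups compared or the replicate block. On day 3 (3 called) the deposited matrix gave 1. Against the control, no filter gave 2 at 3 h and 4 on day 7 (0 each in the main fit), only the groups compared gave 4 at 3 h, 0 at 12 h (3 called) and 1 on day 3 (0 called), the deposited matrix gave 1 at 12 h, and DESeq2 gave 1 on day 7. Sham against control on day 3 (0 called) gave 1 with only the groups compared. The cause was not tested.

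Leaving out each library gave 0 to 2 calls at 3 h, 0 to 4 at 12 h, 1 to 4 on day 3, 0 to 4 on day 7 and 4 to 5 over all times for MCAO against sham, and 0 to 4 at 12 h and 0 to 2 on day 7 against the control. In the other comparisons it gave 0 each time. The log2 fold change of Hba-a1, all sham against control, was -0.63 and ran from -0.87 (without 3 h sham A) to 0.025 (without control C) with 1 library left out, with no call. In control and sham libraries alone r fell to 0.43 for *Hbb-bs* with *Alas2*, 0.37 for *Hbb-bt* with *Hba-a2*, 0.39 for *Hbb-bt* with *Alas2* and 0.51 for *Hba-a1* with *Alas2*. Scaling to the spike-ins moved the median log2 fold change of all genes to between -0.28 and 0.14.

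The replicate letters were shared between groups, but of 20 same-letter sham and MCAO pairs 8 correlated above 0.1 (range -0.31 to 0.17), so that the letters were not taken as pairs. Depth limits *Alas2* most, with 93 reads in all.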

Other observations

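The shares of the 2 copies with fewer counted reads were compared after their values were seen. Over the 37 libraries with at least 20 reads of each chain in groups with 2 or more such libraries (day 3 sham A, alone in its group, was left out), the *Hba-a2* share of alpha chain reads and the *Hbb-bt* share of beta chain reads, with group means subtracted, gave Pearson's r = -0.68 and Spearman's rho = -0.68 (two-sided permutation p = 0.00221 and 0.00104, adjusted over 3 sets of libraries 0.00332 and 0.00156), and r was -0.64 without the 2 farthest libraries. Among the 13 control and sham libraries of these r was -0.98 and rho -0.98 (permutation p = 0.0009 for both, adjusted 0.0027 and 0.00156), and -0.97 without the 2 farthest. The shams of 3 h, day 1 and day 7 held only 2 such libraries each. Few arrangements within groups were thus possible, and a permutation p of 0.0009 is near the lowest they allow. Among the 24 MCAO libraries r was -0.47 and rho -0.44 (permutation p = 0.0758 and 0.0682), which did not pass, and r was -0.22 without the 2 farthest. The libraries share their lost reads between copies, whose part in this relation was not tested.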
